A study of Mus musculus with 4 samples.

Results

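The 10 genes described here belong to the Wnt and β-catenin program of the liver lobule: *Lgr5*, *Rnf43* and *Znrf3* at the cell surface, *Axin2* and *Nkd1* as feedback inhibitors, *Ctnnb1* and *Tcf7l2* as the transcriptional core, and *Tbx3*, *Rhbg* and *Lect2* as genes of hepatocytes near the central vein. They were taken by gene symbol, and all 10 were found among the 27027 entries of the count table. Hepatic RNA had been pooled at equal shares into 4 pools, each sequenced as 1 library of 3′ mRNA ends (massive analysis of cDNA ends, MACE). Vehicle pools (0.9% NaCl, the controls) held RNA of 6 mice each, and treated pools, from mice that had received 300 mg/kg acetaminophen (APAP), of 7 mice each, with 1 pool of either kind taken 24 h and 1 taken 48 h after injection. Where values are given in pairs, the earlier time comes first. All mice were male C57BL/6J (labelled C57BL/6), 9 to 12 weeks old, and had been fasted for 10 h overnight before the intraperitoneal injection. Since a pool hides the spread between its mice and each condition has 1 pool, no p-values are given.

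Wnt ligands and R-spondins released by endothelial cells of the central vein act on the hepatocytes around it. There, Frizzled receptors and their co-receptors halt the destruction of β-catenin, which enters the nucleus and acts through TCF factors. The genes switched on in this way include the enzymes of glutamine synthesis and of bile acid and drug oxidation, as well as inhibitors that damp the pathway itself. APAP is turned into its toxic metabolite by cytochrome P450 enzymes of the same pericentral hepatocytes, and necrosis begins there.

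Between 4859661 and 5698778 reads were counted per library, and 19637 to 20641 entries had at least 1 read. Counts were divided by size factors (median of ratios), and a fold is the ratio of such normalised reads in a treated pool over the vehicle pool of the same time. Its 95% interval (exact Clopper-Pearson, from the reads of both libraries) covers counting error only. Entries with a mean of at least 10 normalised reads over the 4 libraries were considered for counts of genes past 2-fold, which left 12113 entries. Of the 10 genes, 9 passed, and *Axin2* did not, with a mean of 9.64. MACE counts 1 tag per transcript end, so no scaling by length applies, and values are compared within a gene and not between genes.

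At 24 h, 3 of the 9 genes were at least 2-fold away from the vehicle pool, and *Rhbg*, *Lgr5* and *Tbx3* were all lower. Across all entries past the filter 11.5% were at least 2-fold away in either direction, and 5.68% were lower. At 48 h, 2 genes were at least 2-fold away, *Rhbg* and *Lgr5*, again lower, against 11.4% of all entries in either direction and 5.61% lower. No gene of the 9 was 2-fold higher at either time. *Lgr5* and *Rhbg* are part of these counts and of the medians below. Both passed the filter through their vehicle pools, which favours a lower fold. Their treated pools stood at 5.11 and 6.56 (*Lgr5*) and at 8.52 and 10.3 (*Rhbg*) normalised reads. The median log2 fold of the 9 genes was -0.43 at 24 h and -0.19 at 48 h, beside 0.01 and -0.02 over all entries, and with library totals as the scale it was -0.24 and 0.07. Library totals in place of size factors also moved the median of all entries to 0.19 and 0.25, and folds below are relative to a median near 0.

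**Figure D1:**
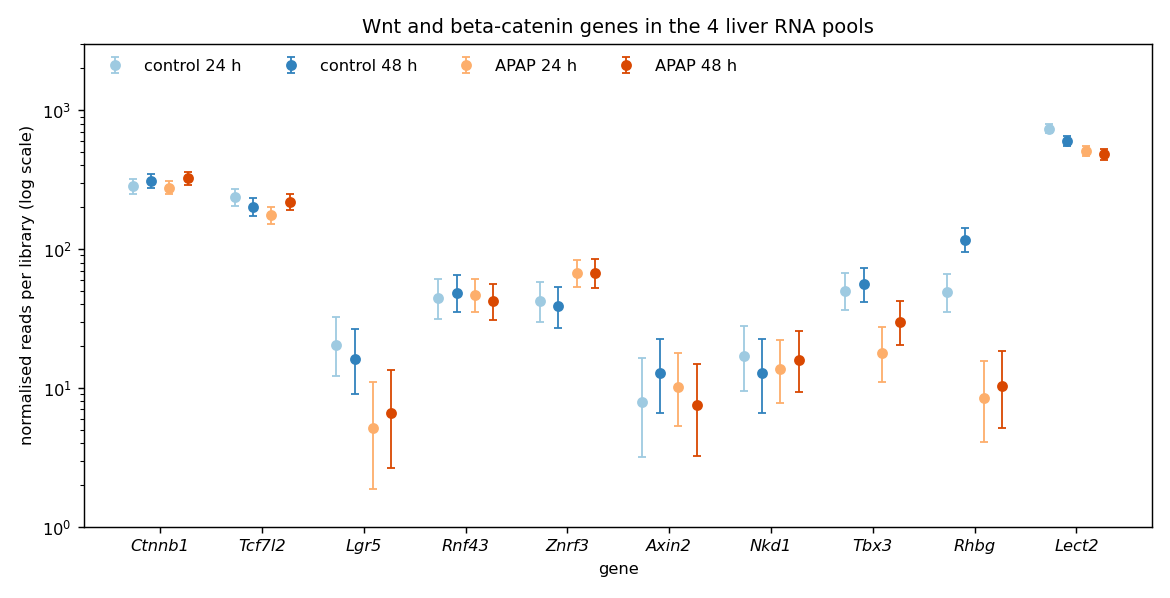
Normalised reads of the 10 genes (vertical axis, log scale) in each of the 4 pools, 1 point per library, with 95% exact Poisson intervals of the counts as bars. The APAP points of Rhbg lie at 8.52 and 10.3 normalised reads, below control points of 48.9 and 117, and those of Znrf3 lie at 67.3 and 67.5, above 42.1 and 38.6.

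Of *Rhbg*, *Tbx3* and *Lect2*, the 3 genes grouped here as pericentral, *Rhbg* differed most from its controls. *Rhbg* encodes a membrane channel for ammonia of the Rhesus family, and it lies on the minus strand of chr3:88242874-88254709 (GRCm38, GENCODE annotation) with 10 exons. The vehicle pools had 43 and 109 reads of it, and the treated pools had 10 and 11. Both treated pools thus lay far below both vehicle pools, and the vehicle pools were far apart from each other. *Rhbg* was 5.74-fold lower (95% interval 2.84 to 12.8) at 24 h and 11.3-fold lower (6.09 to 23.4) at 48 h. It was the only one of the 9 genes past 5-fold, a size that 0.636% of all entries reached as lower at 24 h and 0.768% at 48 h. The vehicle pool at 48 h held 2.39 times (1.67 to 3.49) the *Rhbg* of the vehicle pool at 24 h, and *Rhbg* was the only one of the 9 past 2-fold between the vehicle pools with an interval outside 1, as were 3.21% of all entries. With the vehicle pool of the other time as the denominator, its fold was 0.0729 at 24 h and 0.211 at 48 h. The folds at 48 h and 24 h had a ratio of 0.506 (0.181 to 1.44), an interval that holds 1, and the treated pools themselves had a ratio of 1.21 (0.467 to 3.18). The deposited entry also holds reads that could come from *Gm38392*, a gene of the same strand that overlaps *Rhbg* outside its 3′UTR. The entry of *Gm38392* itself had 0 and 3 reads with vehicle and 7 and 0 after APAP. In whole-liver pools, fewer cells of a type and less RNA per cell cannot be told apart.

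*Tbx3*, a T-box repressor of transcription induced by β-catenin in hepatocytes, lies at chr5:119670669-119684724 on the plus strand. The vehicle pools had 44 and 52 reads, and the treated pools had 21 and 32. All of its APAP values were below all of its control values, and the vehicle pools differed by less than counting error (ratio 1.11, 0.732 to 1.70). At 24 h *Tbx3* was 2.80-fold lower (1.63 to 4.95). At 48 h it was 1.86-fold lower (1.17 to 2.98), short of 2-fold but with an interval outside 1. The treated pool at 48 h held 1.68 times (0.938 to 3.06) the level of that at 24 h, with an interval that holds 1.

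*Lect2* encodes a protein secreted by hepatocytes into blood, first known as an attractant of neutrophils, and its gene is a β-catenin target in liver. It lies at chr13:56542464-56548502 on the minus strand. As normalised reads it stood at 736 and 600 with vehicle and at 508 and 482 after APAP, from 514 to 647 reads per library. The pools did not overlap, but the step between the vehicle pools was of the same order as that between APAP and control. *Lect2* was 1.45-fold lower (1.29 to 1.62) at 24 h and 1.25-fold lower (1.10 to 1.41) at 48 h, and the vehicle pool at 48 h was 1.23-fold lower (1.09 to 1.37) than that at 24 h. Library totals brought its fold at 48 h to 0.965. So of these 3 genes, *Rhbg* had the widest fold at both times, *Tbx3* lay between, and *Lect2* stayed within 1.5-fold. *Lgr5*, described below with the genes of the cell surface, is not part of this order.

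Promoter windows of RefSeq (GRCm38.p6, 250 bases before to 50 bases after each transcript start) were matched by symbol for 6 of the 10 genes, with 9 windows in all, for *Nkd1*, *Ctnnb1*, *Rnf43*, *Axin2*, *Lect2* and *Tcf7l2*. They were searched on both strands for the core of the TCF/LEF motif, CTTTGAT or CTTTGAA, which read ATCAAAG or TTCAAAG on the other strand. Of 32851 windows of the same length, 3.73% held the first form, 5.14% the other and 8.65% either. Of the 9 windows, 1 held a match, that of *Lect2*, 32 bases before the start. No window was available for *Rhbg*, *Lgr5*, *Tbx3* and *Znrf3*, so no gene past 2-fold was searched. The *Lect2* window is printed because it holds this match (in capitals), and that of *Axin2* as a feedback gene of the pathway whose window holds none. Both are given 5′ to 3′ on the strand of the gene, chr13:56548489-56548788 for *Lect2* (minus strand) and chr11:108920099-108920398 for *Axin2* (plus strand). A match is a description of the letters and no evidence of binding, and a window without one is no evidence that a gene lacks such sites elsewhere.
Lect2: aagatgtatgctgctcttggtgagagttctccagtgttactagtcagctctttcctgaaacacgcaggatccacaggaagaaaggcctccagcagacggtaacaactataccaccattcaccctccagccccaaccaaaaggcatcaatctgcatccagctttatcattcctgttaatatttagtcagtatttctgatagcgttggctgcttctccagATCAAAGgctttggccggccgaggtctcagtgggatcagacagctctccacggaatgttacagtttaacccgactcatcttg
Axin2: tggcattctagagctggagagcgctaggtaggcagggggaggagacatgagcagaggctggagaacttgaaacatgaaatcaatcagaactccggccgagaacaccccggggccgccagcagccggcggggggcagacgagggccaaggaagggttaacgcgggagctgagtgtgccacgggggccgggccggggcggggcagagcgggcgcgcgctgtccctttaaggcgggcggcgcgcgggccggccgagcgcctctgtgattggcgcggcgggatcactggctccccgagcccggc

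At the cell surface, *Lgr5* was low in every pool and lower still after APAP. LGR5 binds R-spondins and thereby protects Frizzled receptors from removal, and in liver its gene marks the hepatocytes next to the central vein. It lies at chr10:115450311-115587780 on the minus strand. Its counts were 18 and 15 with vehicle and 6 and 7 after APAP. The APAP values lay below the control values at both times, at a level where a few reads decide the fold. *Lgr5* was 4.0-fold lower (1.52 to 12.3) at 24 h and 2.45-fold lower (0.940 to 7.10) at 48 h, where the interval holds 1. It passed the filter (mean 12.1) through the vehicle pools, since its treated pools stood at 5.11 and 6.56 normalised reads. The treated pool of *Rhbg* at 24 h (8.52) was below the level of the filter too. When the interval had to lie outside 1, the genes at least 2-fold lower were thus *Rhbg*, *Lgr5* and *Tbx3* at 24 h (3 of 9, against 4.99% of all entries) and *Rhbg* alone at 48 h (1 of 9, against 4.99%). *Rhbg* was also the single gene of the 9 lower by this rule at both times, as were 2.15% of all entries.

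*Znrf3* and *Rnf43* encode membrane-bound ubiquitin ligases that remove Frizzled receptors from the cell surface, and both are switched on by β-catenin as feedback. *Znrf3* (chr11:5276324-5444847, minus strand) had 37 and 36 reads with vehicle and 79 and 72 after APAP. Its treated pools lay above both vehicle pools, which were nearly equal to each other. At 24 h its level was 1.60-fold higher (1.07 to 2.43) than with vehicle, and at 48 h the fold was 1.75 (1.16 to 2.69). *Znrf3* was the only one of the 9 genes that was higher with an interval outside 1 at either time, as were 15.4% of all entries at 24 h and 13.9% at 48 h. *Rnf43* (chr11:87662722-87735539, plus strand) had 39 and 45 reads with vehicle and 55 and 45 after APAP. As normalised reads these were between 42.2 and 48.2 in all 4 pools. At 24 h its fold was 1.06 (0.688 to 1.64), at 48 h it was 0.874 (0.565 to 1.35), and both intervals hold 1.

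The cytoplasmic feedback inhibitors were counted too thinly for a 2-fold difference to be excluded in both directions. AXIN2 is a scaffold of the complex that marks β-catenin for destruction and its gene is the most widely used readout of the pathway. *Axin2* (chr11:108920349-108950783, plus strand) had 7 and 12 reads with vehicle and 12 and 8 after APAP. The values of the 2 conditions overlapped, and the folds were 1.28 (0.466 to 3.85) and 0.583 (0.207 to 1.55). *Nkd1* (chr8:88521354-88594884, plus strand), whose product binds Dishevelled and dampens the signal, had 15 and 12 reads with vehicle and 16 and 17 after APAP. Its values overlapped as well, with folds of 0.799 (0.370 to 1.74) and 1.24 (0.558 to 2.84). Each of these intervals holds 1 together with 0.5 or 2, so that a 2-fold difference in at least 1 direction was not detectable at this depth.

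The transcriptional core was counted well and differed little. *Ctnnb1* (chr9:120929216-120960507, plus strand) encodes β-catenin, which is regulated mainly through the stability of the protein. It had 249 and 289 reads with vehicle and 326 and 345 after APAP, which are 283, 310, 278 and 323 normalised reads. The conditions overlapped, with a fold of 0.981 (0.829 to 1.16) at 24 h, and a fold of 1.04 (0.890 to 1.22) at 48 h. With library totals as the scale the fold at 48 h was 1.26. The last 300 bases of its transcript are overlapped by *Ulk4* on the opposite strand. The entry of *Ulk4* had 10 to 20 reads per library, and whether the counting used strand is not given in the sources used here.

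*Tcf7l2* (chr19:55741820-55933654, plus strand) encodes TCF4, a DNA-binding partner of β-catenin in hepatocytes. Its counts were 208 and 187 with vehicle and 206 and 234 after APAP. As normalised reads the treated pool at 24 h was the lowest of the 4 (175), and that at 48 h (219) lay between the vehicle pools (236 and 200). At 24 h the fold was 0.742 (0.609 to 0.904), and at 48 h it was 1.09 (0.899 to 1.33). The ratio of these folds was 1.47 (1.11 to 1.95), and *Tcf7l2* was the only one of the 9 genes whose ratio had an interval outside 1, as had 22% of the 12107 entries with reads in all libraries. Between the treated pools alone, it was 1.25 times (1.03 to 1.52) as high at 48 h as at 24 h, and 12.2% of all entries were higher in this way with an interval outside 1.

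**Figure D2:**
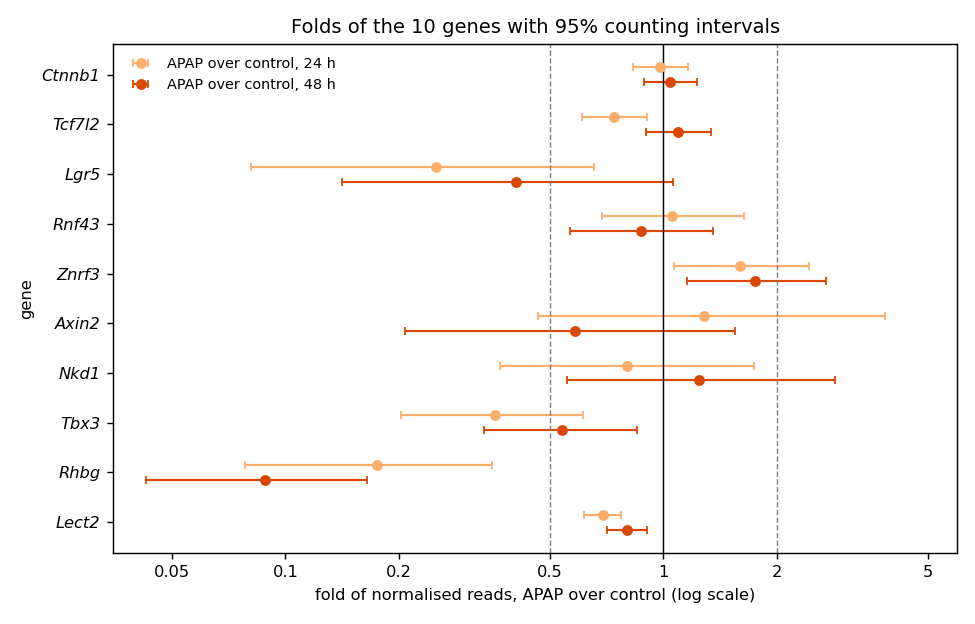
Fold of normalised reads of APAP over control of the same time (horizontal axis, log scale) for the 10 genes at 24 h and 48 h, with 95% counting intervals as bars, a solid line at 1 and dashed lines at 0.5 and 2. The intervals of Rhbg, Tbx3 and Lect2 lie below 1 at both times, those of Lgr5 and Tcf7l2 lie below 1 at 24 h only, and those of Znrf3 lie above 1 at both times.

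Counted without a limit on size, the genes lower with an interval outside 1 were *Rhbg*, *Tbx3*, *Lgr5*, *Lect2* and *Tcf7l2* at 24 h (5 of 9, against 18.3% of all entries) and *Rhbg*, *Tbx3* and *Lect2* at 48 h (3 of 9, against 18.9%). Both treated pools lay below both vehicle pools for 4 of the 9 genes, *Rhbg*, *Tbx3*, *Lgr5* and *Lect2*, and above both for *Znrf3*. Across all entries past the filter, 26.3% lay below in this sense and 24.8% above. The order of the folds at 24 h, from the lowest, was *Rhbg*, *Lgr5*, *Tbx3*, *Lect2* and *Tcf7l2*, and the intervals of the first 3 overlapped each other.

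The lists of further pathway genes were written by role. Of 23 Wnt ligands and R-spondins, 18 were in the table and 4 passed the filter, *Wnt2*, *Wnt4*, *Wnt5b* and *Rspo3*. At 24 h, 2 of the 4 were at least 2-fold lower with an interval outside 1, against 4.99% of all entries, and 1 of them (*Wnt2*) remained so with library totals. The treated pool of *Wnt2* at 24 h (3.41 normalised reads) was below the level of the filter, which it passed through the vehicle pools. *Wnt2*, the ligand of central vein and sinusoidal endothelium, had 12 and 18 reads with vehicle and 4 and 13 after APAP, and was 4.0-fold lower at 24 h (interval of the fold 0.0587 to 0.824), with a fold of 0.632 (0.284 to 1.36) at 48 h. *Wnt5b*, a ligand of the β-catenin-independent branch, had 57 and 51 reads with vehicle and 36 and 61 after APAP, and was 2.11-fold lower at 24 h (fold 0.539 with library totals and 0.561 against the other vehicle pool), with a fold of 1.05 at 48 h. By contrast *Rspo3*, the R-spondin of the central vein, had 29 and 25 reads against 37 and 30, with folds of 0.956 (0.572 to 1.61) and 1.05 (0.597 to 1.86). *Wnt9b*, the other ligand of the central vein, had 5 and 2 reads with vehicle and 0 and 6 after APAP. With 3 reads as the floor of a library it was at least 2.22-fold lower at 24 h, on 5 reads against 0. The counting interval of its fold there was 0 to 0.818, and its ratio at 48 h was 2.62 (0.469 to 26.6). *Wnt2b*, which missed the filter and is named here after its values were seen, had 15 and 12 reads against 2 and 7, with a ratio of 0.0999 (0.0111 to 0.430) at the earlier time and 0.510 (0.170 to 1.41) at the later. The median log2 fold of the 4 genes past the filter was -0.91 at 24 h and -0.15 at 48 h, the latter turning to 0.12 with library totals.

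The endothelial markers did not move together. All 8 listed markers (*Pecam1*, *Cdh5* and *Kdr* among them) passed the filter, none was at 0 in any pool, and their summed level was 120 and 134 RPM (reads scaled to the library total) with vehicle and 158 and 172 RPM after APAP. On the scale of normalised reads the sum had a fold of 1.16 at the earlier time and 1.07 at the later. The median log2 fold of the 8 was 0.38 at 24 h and 0.12 at 48 h. Of the 8, *Thbd* and *Lyve1* were at least 2-fold higher with an interval outside 1 at both times, and *Pecam1* had folds of 1.67 and 1.94. Some others lay near or below 1, *Stab2* with folds of 0.874 and 0.780 (0.625 to 0.973 at the later time), *Clec4g* with 0.940 and 0.902 and *Kdr* with 0.910 and 0.886. *Kit* had folds of 1.28 and 0.437 (0.173 to 1.02 at the later time). Between the vehicle pools, 1 of the 8 markers was at least 2-fold higher at 48 h than at 24 h, but without an interval outside 1. Of the 2 genes of ligand secretion, *Wls*, which carries Wnt proteins to the cell surface, had 11 and 15 reads with vehicle and 21 and 41 after APAP. It was 2.39-fold higher (1.30 to 4.65) at 48 h, with a fold of 1.43 (0.659 to 3.28) at 24 h. The part of the number of endothelial cells in these values was not tested.

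On the receiving side few genes passed 2-fold. Of 17 receptors and co-receptors (Frizzled, LRP5 and LRP6, LGR4 and others) 9 passed the filter. Of these, 1 (*Fzd4*) was at least 2-fold lower with an interval outside 1, at 48 h, against 4.99% of all entries. *Fzd4* was 2.04-fold lower (fold 0.490, 0.235 to 0.979) on 25 and 14 reads. Against the other vehicle pool its fold was 0.502 (0.239 to 1.02), with an interval that holds 1. With library totals its fold was 0.589 (0.283 to 1.18), which left none of the receptors past 2-fold with an interval outside 1. Without the interval rule, 1 receptor was at least 2-fold higher at 48 h on that scale. *Fzd7*, named after its values were seen, had folds of 0.499 (0.235 to 1.03) and 0.486 (0.200 to 1.11). The median log2 fold of the receptors was -0.33 at 24 h and -0.21 at 48 h, the latter turning to 0.05 with library totals. Neither of the 2 secreted antagonists past the filter, of 15 listed, was past 2-fold. Of 16 genes of Dishevelled and the destruction complex, 12 passed the filter, and *Dvl2*, one of the Dishevelled adaptors, was 3.67-fold higher (1.35 to 12.5) at 48 h, with no gene past 2-fold at 24 h. *Dvl2* had 12 and 5 reads with vehicle and 17 and 21 after APAP, so that this fold rests on the low vehicle pool, and against the other vehicle pool it was 1.44 (0.678 to 3.22). *Dvl2* passed the filter through the treated pools, since its vehicle pools (13.6 and 5.36 normalised reads) had a mean under 10. Of 15 nuclear co-factors 11 passed, none was past 2-fold at 24 h, and the co-repressor *Ctbp2* was 2.03-fold higher (1.21 to 3.51) at 48 h, an entry that includes reads shared with the *Fgfr2* annotation. The median log2 folds were 0.08 and 0.18 for the destruction complex at 24 h and 48 h, and 0.02 and -0.05 for the co-factors, the latter turning to 0.21 with library totals.

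Among general β-catenin targets, described mainly in dividing or tumour cells, several transcription factors were higher after APAP at 24 h. Of 11 listed genes 8 passed the filter, and 4 were at least 2-fold higher with an interval outside 1 at 24 h, against 4.89% of all entries. These were *Fosl1*, *Jun*, *Myc* and *Sox9*, which growth and stress signals switch on as well. *Fosl1*, *Myc* and *Tnfrsf19* passed the filter through the treated pools, which favours a higher fold, since the mean of their vehicle pools was under 10 normalised reads. *Fosl1* had 3 and 0 reads with vehicle and 60 and 11 after APAP, a ratio of 15 (4.89 to 74.7) at 24 h. At 48 h it was at least 3.21-fold higher by the floor of 3 reads, with a counting interval of the fold from 2.19 upward. It was the only gene of this list past 2-fold then (4.79% of all entries were). Against the other vehicle pool its ratio at 48 h was 3.02 (0.799 to 16.9). *Myc* had 4 and 11 reads against 36 and 21. It was 6.74-fold higher (2.42 to 26.1) at 24 h, with a fold of 1.67 (0.769 to 3.83) at 48 h. The size of the earlier fold rests on the vehicle pool with 4 reads. With the vehicle pools exchanged, *Myc* had a fold of 2.60 (1.29 to 5.66) at the earlier time. The later fold was then the larger, 4.33 (1.46 to 17.3). Between the treated pools *Myc* had a ratio of 0.642 (0.356 to 1.13), with an interval that holds 1. *Jun* was 4.34-fold higher (3.01 to 6.45) and *Sox9*, a factor of bile duct cells and of hepatocytes next to them, 3.97-fold higher (2.99 to 5.35) at 24 h, with folds of 1.40 and 1.79 at 48 h. *Ccnd1*, the cyclin that drives entry into the cell cycle, had 82 and 118 reads against 121 and 140 and folds of 1.11 (0.828 to 1.48) and 1.04 (0.806 to 1.34). *Sp5*, a direct β-catenin target that missed the filter and is named after its values were seen, had 9 and 10 reads with vehicle and 0 and 3 after APAP. By the floor of 3 reads it was at least 4.0-fold lower at 24 h, with a counting interval of the fold of 0 to 0.380. Its ratio at 48 h was 0.262 (0.0464 to 1.02). *Tnfrsf19*, named after its values were seen like the next genes, had a fold of 1.66 (0.725 to 4.15) at 24 h. *Nkd2* (1.25, 0.243 to 8.04, at 24 h) and *Bmp4* (0.656, 0.202 to 2.07) missed the filter. The median log2 fold of the 8 genes past the filter was 1.36 at 24 h and 0.49 at 48 h. It includes *Fosl1*, *Myc* and *Tnfrsf19* and leaves out *Sp5*, *Nkd2* and *Bmp4*, so the filter itself favours a higher median.

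**Figure D3:**
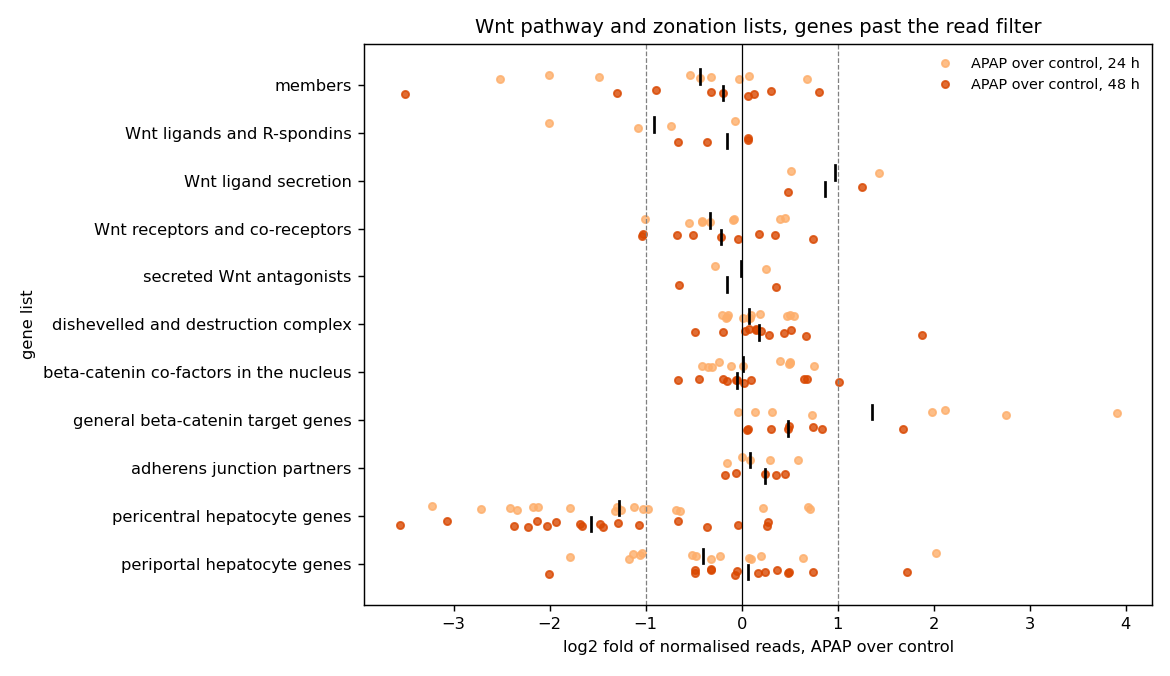
Log2 fold of APAP over control (horizontal axis) for each gene past the read filter, by list, at 24 h and 48 h, with the median of each list as a black bar and dashed lines at 2-fold, and with the 9 of the 10 genes past the filter in the row named members. The pericentral list has medians of -1.27 and -1.57, the general target list of 1.36 and 0.49, and the lists of receptors, destruction complex and co-factors have medians between -0.33 and 0.18. The general target medians include genes that passed the filter through the treated pools.

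Other genes of pericentral hepatocytes were lower as well, and most of them were past 2-fold. All 18 listed genes passed the filter, 12 of them were at least 2-fold lower with an interval outside 1 at 24 h and 13 at 48 h, against 4.99% of all entries at either time, and the same 12 were lower at both times. With library totals the counts were 10 at 24 h and 12 at 48 h. Their median log2 fold was -1.27 at 24 h and -1.57 at 48 h, and their summed level was 5384 and 5466 RPM with vehicle and 3145 and 2516 RPM after APAP. *Glul*, the glutamine synthetase of the cells around the central vein and a classic β-catenin target, had 3046 and 3324 reads with vehicle and 436 and 323 after APAP, including reads shared with a microRNA gene inside it. It was 9.32-fold lower at 24 h (fold 0.107, 0.0968 to 0.119) and 11.8-fold lower at 48 h (0.0850, 0.0756 to 0.0953). *Slc1a2*, which imports glutamate into the same cells, was 5.30-fold and 8.35-fold lower, and *Oat*, which turns ornithine into a precursor of glutamate, was 2.38-fold and 5.16-fold lower. The reads of the *Oat* entry are those that the table gives as *Fgfr2* or *Oat*.

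Like *Rhbg*, *Slc1a2* and *Oat* also differed between the vehicle pools, with 1.60 times (1.31 to 1.96) and 1.65 times (1.49 to 1.83) as much at 48 h as at 24 h, whereas *Glul* was nearly level (3463 and 3564 normalised reads). Between the treated pools *Slc1a2* had a ratio of 1.02 (0.628 to 1.64), whereas *Oat* was also lower at 48 h than at 24 h (ratio 0.762, 0.640 to 0.906). *Cyp7a1*, the rate-limiting enzyme of bile acid synthesis, was 6.54-fold lower at 24 h and 2.10-fold lower at 48 h (fold 0.573 with library totals and 0.572 against the other vehicle pool), and *Slc13a3*, a transporter of dicarboxylates, was 5.07-fold and 4.38-fold lower. *Cyp1a2* was 4.51-fold and 3.16-fold lower and *Cyp2e1*, the main enzyme of APAP activation, 1.61-fold and 2.71-fold lower. The 3 genes of the list that were not lower at 24 h, *Nr1i3* (fold 1.64), *Rnase4* (1.61) and *Ahr* (1.16), are named here after their values were seen.

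**Figure D4:**
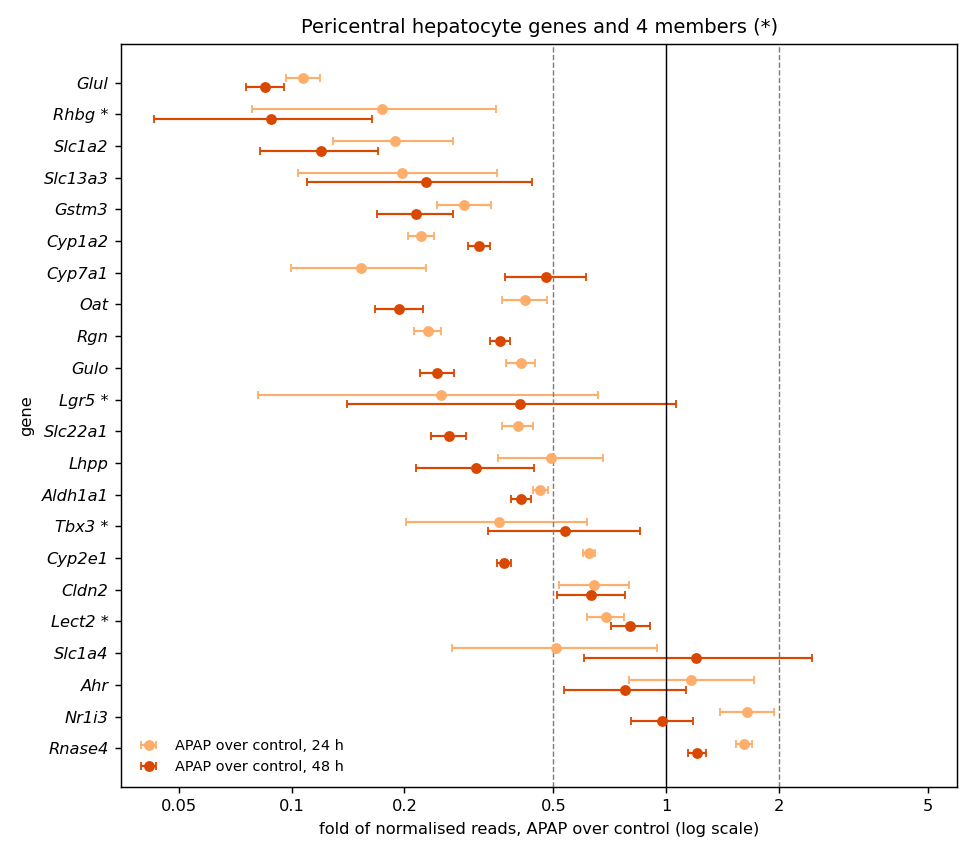
Fold of APAP over control (horizontal axis, log scale) with 95% counting intervals for the 18 pericentral genes and, marked by an asterisk as members of the 10 genes, Rhbg, Lgr5, Tbx3 and Lect2, ordered by the sum of both log2 folds. Rhbg lies next to Glul at the low end, Lgr5 and Tbx3 lie within the range of the list, and Lect2 lies near its upper end.

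Beside these values stand those of other cell types. The 5 hepatocyte markers in the table summed to 69899 and 71945 RPM with vehicle and 74440 and 87237 RPM after APAP, with none at 0. In normalised reads the sum turned to a fold of 0.936 at the earlier time, with *Ttr* at 0.561 (0.554 to 0.568), and stood at 1.01 at the later. *Fgb*, a fibrinogen chain of the acute phase, was the only one past 2-fold (2.70-fold higher at 24 h). Macrophage markers (6 of 6 past the filter, none at 0) summed to 133 to 136 RPM with vehicle and to 213 and 347 RPM after APAP, with *Lyz2*, *Marco* and, at 48 h, *Cd68* more than 2-fold higher, and with normalised folds of the sum of 1.37 and 2.18. The Kupffer cell marker *Clec4f* went the other way at the earlier time (0.534, 0.441 to 0.645) and had a fold of 0.985 at the later, while *Adgre1* (0.793 and 1.14) and *Csf1r* (0.995 and 0.936) had intervals that hold 1. Neutrophil markers (2 of the 3 in the table past the filter, *S100a8* and *S100a9*, both through the treated pools, none at 0) summed to 2.68 and 3.08 RPM with vehicle and to 40.7 and 32.4 RPM after APAP. Stellate cell markers (6 of 6, none at 0) summed to 82.5 and 90.1 RPM against 112 and 185 RPM, with *Col1a1*, *Col3a1* and *Des* more than 2-fold higher at 48 h and with normalised folds of the sum of 1.19 and 1.70. Of the other stellate markers *Lrat* had folds of 0.557 (0.322 to 0.951) and 0.832, *Reln* of 0.957 and 0.846 and *Dcn* of 1.37 and 1.48. Cholangiocyte markers (1 of 5 past the filter, *Spp1*, 2.14-fold higher at 48 h) summed to 14.0 and 19.6 RPM against 28.1 and 37.7 RPM, with *Cftr* at 0 in 3 of the 4 libraries. The part of these cells in the folds of the Wnt and β-catenin genes was not tested.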

How the data were processed

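Hepatic RNA of 4 conditions was analysed as 1 pool and 1 MACE library each. The authors digested RNA with DNase, made 3′ libraries with molecular identifiers, removed duplicates, trimmed by cutadapt, clipped poly(A), mapped to mm10 and deposited raw counts per gene by HTSeq, and their processing notes name DESeq2, with versions not given in the sources used here. The same table holds their scaled values, log2 ratios, p-values and FDR, which were not used. Entries can sum reads that fit several genes.

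Size factors came from DESeq2 1.42.0 (0.880 and 0.933 for the vehicle pools, 1.17 and 1.07 for the treated pools, earlier time first). TMM factors of edgeR 4.0.16 were the alternative (R 4.3.3). Neither tool's test was run, as each group has 1 library. Folds and intervals were computed in Python 3.11.15 (numpy 2.4.6, scipy 1.17.1, pandas 2.3.3), and figures drawn with matplotlib 3.10.9. In counts and medians, a count of at most 3 reads was raised to a floor of 3 (0.526 to 0.617 RPM). This was done in the library of the pair with the lower normalised level, vehicle or treated. A bound is printed against 0 reads. It comes from this floor and is not a limit of the counting interval. Against 1 to 3 reads, a ratio of the reads as counted is printed with its interval. The ratio of folds has the exact conditional interval of the odds ratio, or a log-normal one above 3000 reads and over all entries. Positions follow GENCODE M21 (GRCm38), and shared 3′ ends were searched with blastn 2.17.0 (95% identity, 100 bases). The procedure was tested on simulated Poisson counts without spread between pools, so that test covers counting error only. The changed genes in it were better counted than *Lgr5*.

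The 10 genes, the pathway and marker lists and all thresholds were chosen with earlier results of these data known. Named are the 10 genes, from each list at most 5 genes past 2-fold with an interval outside 1 by size, *Wnt2*, *Wnt9b*, *Rspo3*, *Glul*, *Cyp2e1*, *Cyp1a2* and *Ccnd1* in any case, and the 5 entries nearest in pattern to each of the 2 best-counted genes (1 of them is not reported here). The direct comparison of the treated pools, the counts of entries whose conditions do not overlap, the share of entries with a ratio of folds outside 1 and the folds of list genes against the other vehicle pool or with library totals were added after seeing the data.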

Additional observations from a re-analysis of the deposited data

Results flagged for a closer look

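*Tcf7l2* was flagged because its difference from control was not the same at both times. Its fold of APAP over control was 0.742 (95% counting interval 0.609 to 0.904) at 24 h and 1.09 (0.899 to 1.33) at 48 h, a ratio of 1.47 (1.11 to 1.95). With 1 library per condition, the difference between the times was not tested beyond counting error.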

How the results depend on the processing

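No paired analysis was possible because each group has 1 library. No replicate could be left out for the same reason. No fold of the 10 genes past 2-fold changed its direction. With a mean of at least 50 normalised reads as the filter, 0 genes were past 2-fold at either time, with or without the interval rule, since *Rhbg*, *Tbx3* and *Lgr5* fall below that mean. At 5-fold 1 gene was left at 24 h and 1 at 48 h, *Rhbg* each time and by either rule. At 1.5-fold there were 4 genes at 48 h, and 3 with the interval rule (*Rhbg*, *Tbx3* and *Znrf3*). With the interval rule at 48 h, library totals gave 2 genes (*Rhbg* and *Znrf3*), and the vehicle pool of the other time and the sum of both vehicle pools each gave 2 (*Lgr5* and *Rhbg*). Of 100 member folds under the alternatives, 93 stayed within their counting interval and 7 did not: those of *Rhbg* with the other vehicle pool (given above), *Lect2* with library totals (0.786 at 24 h and 0.965 at 48 h) or the other vehicle pool (0.845 and 0.655) and *Ctnnb1* with library totals (1.26 at 48 h). Genes near 1 crossed it, *Rnf43*, *Axin2* and *Nkd1* at 24 h and *Tcf7l2* and *Nkd1* at 48 h with the other vehicle pool, *Ctnnb1* at 24 h and *Rnf43* at 48 h with library totals, and *Axin2* at 24 h with the sum of the vehicle pools. All 20 ratios of folds stayed within their intervals. Of 64 counts of list genes past 2-fold with an interval outside 1, 6 moved by more than 1.5 times, all with library totals. At 24 h these were ligands from 2 to 1, secretion from 0 to 1, periportal genes from 6 to 2 and cholangiocyte markers from 0 to 1. At 48 h they were receptors from 1 to 0 and general targets from 1 to 2. Depth limited *Axin2*, *Nkd1* and *Lgr5*, with 6 to 18 reads per library.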

Other observations

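Periportal hepatocyte genes lay on both sides of control. Of 14 listed genes, all past the filter, 5 were at least 2-fold lower and 1 higher with an interval outside 1 at 24 h (4.99% and 4.89% of all entries), and 1 was lower and 1 higher at 48 h (4.99% and 4.79%). With library totals 1 was lower at 24 h, *Etnppl*. *Pck1*, the key enzyme of gluconeogenesis, stood 4.07-fold above control (3.75 to 4.41) at the earlier time and 3.31-fold above it (3.07 to 3.56) at the later. *Cyp2f2*, a cytochrome P450 of the portal side, was 2.25-fold and 4.01-fold lower. *Etnppl*, a phospholyase for phosphoethanolamine, was 3.44-fold lower at 24 h with a fold of 1.13 (0.960 to 1.32) at 48 h. *Gls2*, the liver glutaminase, and *Ass1*, a urea cycle enzyme, were 2.19-fold and 2.09-fold lower at 24 h. With library totals the folds at 24 h were 0.506 for *Cyp2f2*, 0.521 for *Gls2* and 0.545 for *Ass1*. At 48 h *Gls2* and *Ass1* had folds of 0.804 and 0.716. The median log2 fold of the list was -0.40 at 24 h and 0.06 at 48 h, beside -1.27 and -1.57 for the pericentral list. With library totals the periportal medians were -0.21 and 0.33. The 5 adherens junction partners of β-catenin had no member past 2-fold at either time and medians of 0.09 and 0.24.

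Among 4398 entries with a mean of at least 100 normalised reads, those nearest in pattern over the 4 libraries (root-mean-square difference of centred log2 values) to *Ctnnb1* were *Rab1a* (0.00869), *Capns1*, *Mir703* and *St7l*, and 410 entries lay within 0.1. Those nearest to *Lect2* were *Tsku* (0.0193), *Nxf1*, *Gpr146*, *Ergic1* and *Arhgap21*, and 140 entries lay within 0.1. With 4 libraries, such likeness is shared by many entries.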
